A study of Mus musculus with 6 samples.

Results

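The nuclear-encoded subunits of the mitochondrial respiratory chain and ATP synthase were compared between adrenal glands of 2 mouse strains. The glands came from male mice aged 12 weeks of the hypertensive strain BPH and the hypotensive strain BPL, lines that were obtained by selection for high and low blood pressure, with 3 arrays per strain and no treatment named in the labels. Total RNA of each sample was labelled with biotin and hybridised to an Affymetrix mouse array, and each probe set gives 1 signal per array. The labels name 3 mice per strain, but do not tie each array to a single mouse, and p-values here therefore measure only how far these arrays spread, which may in part be technical.

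Members were the probe sets with a single gene symbol beginning with Nduf, Uqcr, Atp5 or Cox followed by a digit from 4 to 8, the symbols Sdha to Sdhd, and Cyc1 and Cycs. Cox6a2, Cox7a1 and Cox8b, isoforms known for striated muscle and brown fat, were left out by rule. The rule used names only and no signal, but it was set with earlier results of these data known. It found 97 probe sets of 70 genes, among 10833 probe sets of 8251 genes with a single symbol. Of the 97 probe sets 75 were bright enough to be tested, covering 64 genes, and 6 genes (Ndufs4, Ndufc2, Ndufa12, Cox5a, Cox8a and Atp5j2) had no tested probe set. The filter used the mean over all 6 arrays and so did not depend on the strain. Where a gene had several probe sets, the one with the highest mean stood for it. Another 10 probe sets carried a matching symbol together with other symbols and were not members.

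The respiratory chain is a row of protein complexes in the inner mitochondrial membrane. Complex I (NADH dehydrogenase) and complex II (succinate dehydrogenase) pass electrons to ubiquinone, complex III passes them to cytochrome c, and complex IV (cytochrome c oxidase) passes them to oxygen, while complexes I, III and IV pump protons that drive ATP synthase. Most subunits are encoded in the nucleus and a minority in mitochondrial DNA. In steroid-making cells of the adrenal cortex the first and last steps of corticosteroid synthesis take place in mitochondria, and in chromaffin cells of the medulla ATP is stored with catecholamines in secretory granules.

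Complex II held the only member that passed the test, so the stretches before the start of 3 of its genes are shown to set Sdhd beside subunits that did not pass. The sequences are from RefSeq promoter windows of build GRCm38.p6, printed 5′ to 3′ on the gene's own strand and ending 1 base before the start. Capitals mark letters of 2 searched motifs, the ETS core CCGGAAG and the NRF1 letters, GCGCA and GCGC with any 1 base between them, on either strand. The Sdhd and Sdha stretches begin next to the start of a neighbouring gene that runs the other way. These are Timm8b, 52 bases from the start of Sdhd, and Ccdc127, 77 bases from the start of Sdha. The Sdhd stretch is chr9:50603850-50603900 on the minus strand, the Sdha stretch chr13:74350241-74350316 on the minus strand and the Sdhb stretch chr4:140961171-140961270 on the plus strand.
Sdhd: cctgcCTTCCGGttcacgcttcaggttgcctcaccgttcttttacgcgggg
Sdha: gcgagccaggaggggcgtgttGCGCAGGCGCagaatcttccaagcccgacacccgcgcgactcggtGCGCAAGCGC
Sdhb: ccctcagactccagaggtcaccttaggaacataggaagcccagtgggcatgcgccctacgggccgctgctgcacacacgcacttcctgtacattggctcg
The Sdhd stretch held 1 ETS match, the Sdha stretch 2 NRF1 matches and the Sdhb stretch no match of either kind. Counted over the whole 250 bases before the start, which run past the neighbour's start, Sdhd had 1 NRF1 match as well as 1 ETS match and Sdha had 3 NRF1 matches. Sdhc had no window in the table used.

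Motifs named after 4 kinds of factor known to act on genes of oxidative metabolism were searched on both strands in windows from 250 bases before to 50 bases after the start, which 57 of the 70 member genes had. NRF1 letters lay in a window of 12 of the 57 genes (21.1%), against 12.3% of 4560 tested genes with a window and 4.6% of all 32851 windows. ETS letters lay in 16 (28.1%), against 20.2% and 8.86%. The YY1 letters AAGATGGC lay in 8 (14.0%), against 5.53% and 2.75%. The ERR letters TCAAGGTCA lay in 1 member gene (1.75%), against 0.307% of tested genes and 0.423% of windows, and that gene was Sdhd. There they lie at positions 37 to 45 after the start, on the opposite strand, in chr9:50603800-50603819.
Sdhd, with the ERR letters in capitals: gtagagTGACCTTGAgccct
The window of Timm8b overlaps that of Sdhd and holds the same ERR letters. Median log2 differences of tested members with and without a match were -0.32 and -0.23 for NRF1, -0.32 and -0.23 for ETS, and -0.18 and -0.24 for YY1. These matches describe letters only, and the motifs were chosen with the differences known.

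Across the respiratory chain, log2 differences (BPH minus BPL) were mostly small and negative, and 1 gene, Sdhd, was called by limma. That call did not hold in every fit with 1 array left out. Of 64 tested member genes 59 had a negative difference (92.2%), against 38.4% of all 5664 tested genes, and 63 lay below the median of all genes. Members were bright, 49 of the 70 lying above the 90th percentile of mean signal, and the shares of all genes were not matched for brightness. The median was -0.24 for the members and 0.09 for all genes. By limma with Benjamini-Hochberg adjustment over all tested probe sets, at a threshold of 0.05, 1 member was called lower and 0 higher, against 0.918% of all genes called lower and 3.32% called higher. At an unadjusted p under 0.05, 10 members were lower (15.6%) and 0 higher, against 6.09% and 14.4% of all genes. That count of 10 was 27 with the authors' scaling and 35 after quantile normalization. With 1 array left out it was 5, 3 and 16 for BPL replicates 1, 2 and 3 and 17, 4 and 4 for BPH replicates 1, 2 and 3. In 12 members (18.8%) the 3 BPH arrays all lay below the 3 BPL arrays, and in 0 all above, against 7.68% and 20.3% of all genes. The median of all genes moved with the scaling of the arrays, from 0.09 to -0.02 with the authors' scaling and 0.00 after quantile normalization. Set against that median, the members stood at -0.33, -0.34 and -0.39 in turn. Subunits of these complexes are present in all cell types of the gland, and in whole tissue fewer cells of a type and less RNA per cell cannot be told apart.

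**Figure D1:**
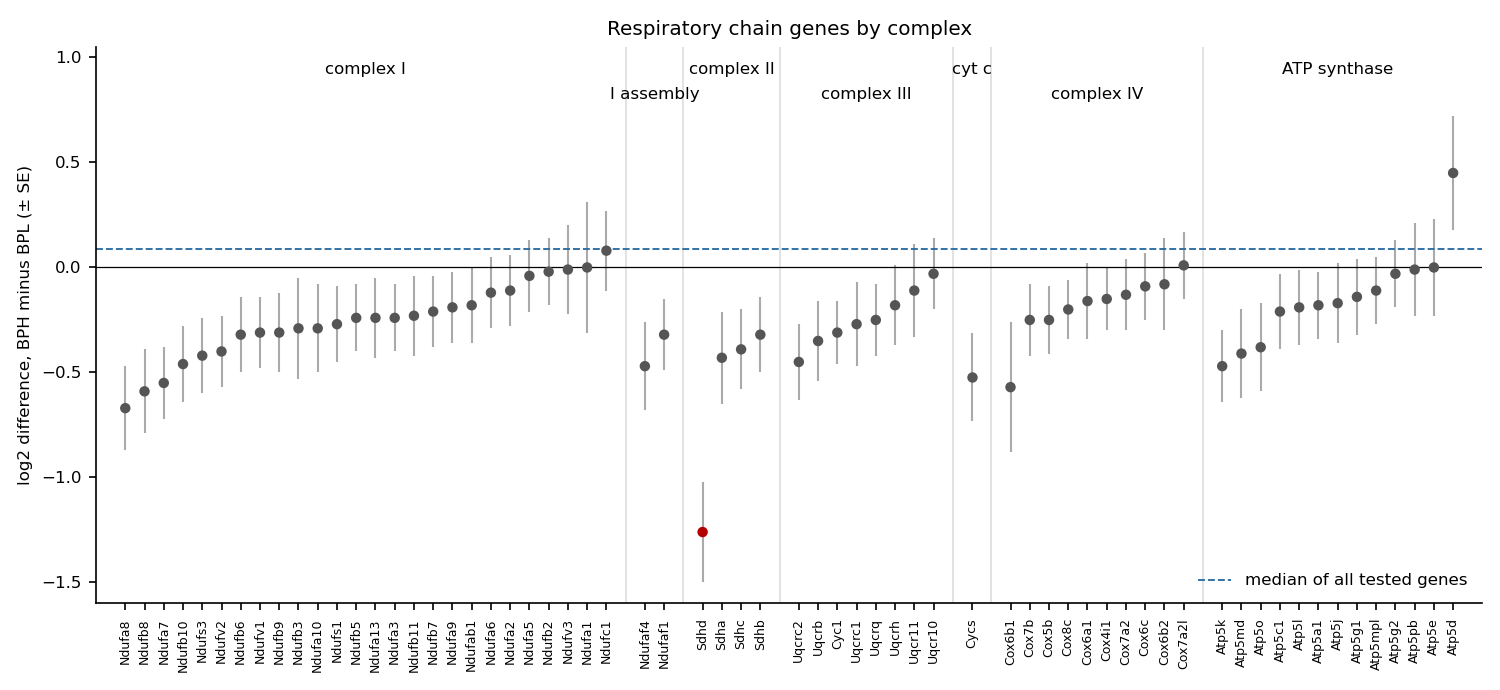
Log2 difference in signal, BPH minus BPL, on the vertical axis for the 64 tested respiratory chain genes, sorted within each complex on the horizontal axis; points are limma estimates, bars are SE (3 arrays per strain), red marks the called gene and the dashed line is the median of all tested genes, 0.09. Sdhd stands at -1.26 and the other members lie between -0.67 (Ndufa8) and 0.45 (Atp5d).

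The members did not split cleanly by strain on every array. Mean log2 signals over the 64 genes were 14.05, 14.19 and 13.88 in BPL replicates 1, 2 and 3 and 13.98, 13.73 and 13.66 in BPH replicates 1, 2 and 3. BPH replicate 1 thus lay above BPL replicate 3, and the strains overlapped. The group means, 14.04 ± 0.15 and 13.79 ± 0.17 (SD, n = 3), differed by -0.25. BPL replicate 2 had the highest signal of 45 of the 64 genes and BPH replicate 3 the lowest of 37.

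Summed marker signals of other tissues also differed between arrays, not all in the order of the respiratory chain. Summed signals of 21 skeletal muscle markers were 216650, 528179 and 48103 in BPL replicates 1, 2 and 3 and 22394 to 24548 in BPH, none of them at 0. Of the 18 tested muscle markers 8 were called lower and 0 higher. Called markers such as Acta1 and Myh4, with log2 means of 8.77 and 7.86 in BPH, passed the brightness filter through their BPL signal. For such genes a call in the other direction could hardly arise, so the direction of these calls is a description. For 8 brown fat markers the sums were 189032, 207002 and 140924 in BPL and 149271, 79553 and 85009 in BPH replicates 1, 2 and 3. By limma 0 were called lower and 1 called higher, Dio2 at 1.16 ± 0.25 (limma adjusted p = 0.043). An unadjusted p under 0.05 was reached by 5 lower and 1 higher. The 8 include the complex IV isoforms Cox7a1 and Cox8b, both among the 5 lower, so these sums are not independent of complex IV genes. For 5 liver genes they were 1470 to 33217 in BPL, highest in replicate 2, and 1655 to 8753 in BPH, highest in replicate 3. Cortex markers were bright in both strains, with sums of 560741 to 730220 in BPL and 700386 to 820590 in BPH over 9 genes, of which 1 was called higher. The sums of 8 medulla markers were 147577 to 230600 and 239628 to 307863, with 3 of 7 tested genes called higher. Sums over 7 markers of fat of any kind ran from 180430 to 187353 in BPL and from 167174 to 209085 in BPH, with 1 called lower. Sums for endothelium (6 genes, 13957 to 21117 in BPL and 21368 to 24170 in BPH), immune cells (6 genes, 6552 to 7123 and 8520 to 9619) and kidney (6 genes, 1602 to 3134 and 1727 to 5626) included no called gene by limma. At an unadjusted p under 0.05, 2 endothelial, 2 immune and 0 kidney genes differed. The part of these tissues in the differences of the respiratory chain was not tested.

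With BPL replicates 1 and 2 left out, which leaves 1 BPL array that is assumed to vary like the BPH arrays, 47 of the 64 members had a negative difference, their median was -0.10 against 0.04 for all genes, and 0 members were called by limma (2 lower at an unadjusted p under 0.05). Without BPL replicate 2 alone the median was -0.16. Without BPL replicate 2 and BPH replicate 3 together, a pair chosen after seeing the data, it was -0.11. BPL replicates 1 and 2 had the highest member means of BPL and BPH replicate 3 the lowest of BPH. Leaving these arrays out tends by construction to bring the medians nearer to 0, so the smaller medians are a description.

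**Figure D2:**
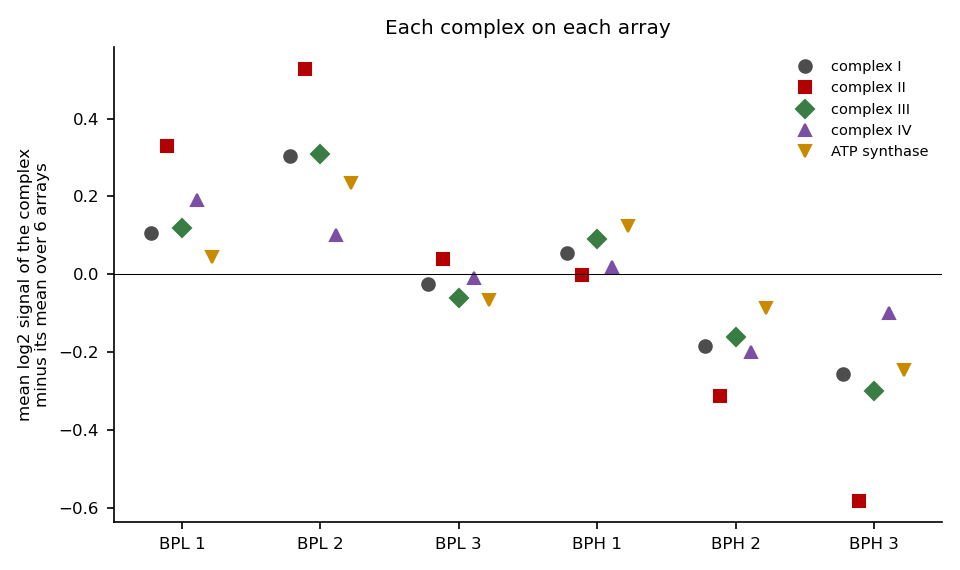
Mean log2 signal of each complex on each of the 6 arrays, drawn as the deviation from that complex's mean over the arrays (vertical axis, log2 units); each symbol is 1 complex and replicates have no order. Complex II, a mean of 4 genes that includes Sdhd, spans the widest range. BPH replicate 1 lies above BPL replicate 3 in complexes I, III and IV and ATP synthase. The same holds for Sdha, Sdhb and Sdhc of complex II taken singly, but not for Sdhd.

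Complex II oxidises succinate in the citric acid cycle and, unlike the other complexes, is made of nuclear-encoded subunits alone. All 4 of its subunits were measured. Sdhd is the small membrane anchor that, with Sdhc, binds heme and ubiquinone. Its signals were 27075, 35261 and 22695 in BPL replicates 1, 2 and 3 and 15060, 11235 and 9042 in BPH. Every BPH array lay below every BPL array. The mean fell from 28343 ± 6378 to 11779 ± 3046 (SD, n = 3), which is -1.26 ± 0.24 on the log2 scale (SE, limma adjusted p = 0.024). The call was lost when 1 array was left out in 4 of the 6 cases. With BPL replicate 1 removed the limma adjusted p was 0.070 (-1.28), and with BPL replicate 2 removed 0.075 (-1.09). It was 0.10 when BPH replicate 2 was the array removed (-1.24) and 0.075 when it was BPH replicate 3 (-1.09). It was 0.30 without BPL replicates 1 and 2 together (-0.97) and 0.068 with no filter on dim probe sets. It has a single probe set.

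The other complex II subunits overlapped between strains. The flavoprotein Sdha was at 7596, 8402 and 5847 in BPL and 6967, 4827 and 4362 in BPH, a log2 difference of -0.43 ± 0.22 (limma adjusted p = 0.30). The iron-sulfur subunit Sdhb was at 37208, 43649 and 32438 against 34254, 30875 and 25743, a difference of -0.32 ± 0.18 (limma adjusted p = 0.35). The second anchor Sdhc was at 24968, 26167 and 19923 against 21089, 18689 and 14672, a difference of -0.39 ± 0.19 (limma adjusted p = 0.29). In these 3 subunits BPH replicate 1 lay above BPL replicate 3. Taken within each array, the log2 signal of Sdhd minus the mean of the other 3 was 0.49, 0.72 and 0.53 in BPL and -0.19, -0.33 and -0.39 in BPH. That is 0.58 ± 0.12 against -0.30 ± 0.10 (SD, n = 3), a gap of -0.88 that is wider than the spread within either strain. It is a description, since Sdhd was singled out by its difference. Timm8b, a chaperone of mitochondrial protein import whose gene starts 52 bases from that of Sdhd, stood at -0.08 ± 0.16 (limma adjusted p = 0.80). The median of complex II was -0.41, and -0.15 without BPL replicates 1 and 2.

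**Figure D3:**
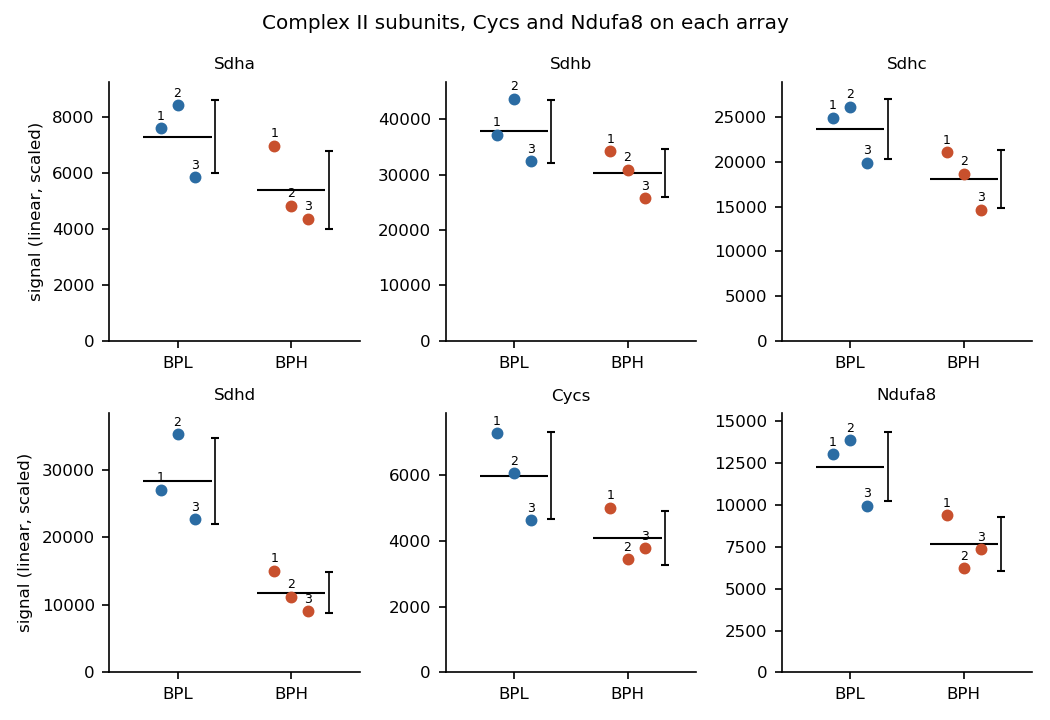
Signal on each array (vertical axis, linear scaled signal from 0) of the 4 complex II subunits, cytochrome c and the complex I subunit Ndufa8, with BPL in blue, BPH in red, replicate numbers at the points, a line at the mean and a bar for the SD (n = 3). Sdhd and Ndufa8 show no overlap between strains, while in Sdha, Sdhb, Sdhc and Cycs BPH replicate 1 lies above BPL replicate 3.

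Complex I was the largest group, with 29 genes measured and 26 tested. None was called, which is 0 by limma in either direction. An unadjusted p under 0.05 was reached by 6, all lower (23.1%, against 6.09% of all genes). The median was -0.24, with a range from -0.67 to 0.08. Ndufa8, an accessory subunit with twin cysteine motifs, was at 13054, 13861 and 9958 in BPL and 9403, 6229 and 7365 in BPH, a log2 difference of -0.67 ± 0.20 (limma adjusted p = 0.12). Ndufb8, of the membrane arm, was at 35029, 41127 and 29759 against 28385, 22799 and 19218, a difference of -0.59 ± 0.20 (limma adjusted p = 0.15). The accessory subunit Ndufa7 was at 40183, 52221 and 47311 against 36303, 31083 and 27805, a difference of -0.55 ± 0.17 (limma adjusted p = 0.13). Ndufb10, also of the membrane arm, was at 17480, 22745 and 16029 against 15380, 12311 and 12804, a difference of -0.46 ± 0.18 (limma adjusted p = 0.21). In these 4 genes the strains did not overlap. Ndufa7 was called with the authors' scaling (-0.67, limma adjusted p = 0.042) and after quantile normalization (-0.71, limma adjusted p = 0.025). The dim second probe set of Ndufb10, not tested, stood at 0.16. Ndufs4, a subunit that joins late in assembly, was also too dim to test, at 686, 736 and 616 in BPL and 582, 176 and 394 in BPH, without overlap.

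By position in complex I, the 4 measured subunits of the redox core, Ndufv1, Ndufv2, Ndufs1 and Ndufs3, which carry flavin or iron-sulfur clusters or lie in the arm that does, ranged from -0.42 (Ndufs3) to -0.27 (Ndufs1), with a median of -0.35. In Ndufs3 and Ndufv2 the strains did not overlap, and the second probe set of Ndufv2 gave -0.39 beside -0.40. The 9 Ndufb subunits ranged from -0.59 to -0.02 with a median of -0.29. The 11 tested Ndufa subunits, counting the acyl carrier Ndufab1, ranged from -0.67 to 0.00 with a median of -0.19. At the upper end stood Ndufc1, at 32416, 44589 and 35213 against 41834, 43995 and 32388, a log2 difference of 0.08 ± 0.19 (limma adjusted p = 0.85), which was -0.04 with the authors' scaling and -0.15 after quantile normalization. Ndufa1, next to it, stood at 0.00 ± 0.31. The symbol rule also takes in 2 factors that assemble complex I and are no part of it. Ndufaf4 stood at -0.47 ± 0.21 (limma adjusted p = 0.25) and Ndufaf1 at -0.32 ± 0.17 (limma adjusted p = 0.32), the latter with no overlap between strains.

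Of complex III, which moves electrons from ubiquinol to cytochrome c, 8 genes were measured and tested, and all 8 differences were negative, from -0.45 to -0.03 with a median of -0.26. None passed the test, which is 0 by limma, and 1 had an unadjusted p under 0.05. The core protein Uqcrc2 was at 29642, 28255 and 21937 in BPL and 21302, 19505 and 17131 in BPH, with no overlap and a log2 difference of -0.45 ± 0.18 (limma adjusted p = 0.20). Its partner Uqcrc1 was at 25058, 26483 and 17909 against 22239, 18054 and 16887, which overlapped, at -0.27 ± 0.20 (limma adjusted p = 0.47). Cytochrome c1, encoded by Cyc1, carries the heme that hands electrons to cytochrome c. Its brighter probe set was at 79585, 82391 and 72768 against 69512, 57823 and 61739, with no overlap at -0.31 ± 0.15 (limma adjusted p = 0.28). A dimmer Cyc1 probe set stood at -0.27, where the strains overlapped. The small subunits Uqcrb (-0.35 ± 0.19), Uqcrq (-0.25 ± 0.17), Uqcrh (-0.18 ± 0.19), Uqcr11 (-0.11 ± 0.22) and Uqcr10 (-0.03 ± 0.17) all overlapped. Without BPL replicates 1 and 2 the median of complex III was -0.04, and Uqcrc1, Uqcr10 and Uqcr11 stood above 0.

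Cytochrome c (Cycs) carries electrons from complex III to complex IV. Its signals were 7286, 6061 and 4632 in BPL and 5022, 3452 and 3788 in BPH, where BPH replicate 1 lay above BPL replicate 3. The log2 difference was -0.52 ± 0.21 (limma adjusted p = 0.22).

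Complex IV, which reduces oxygen to water, had 12 genes measured and 10 tested, with a median of -0.16 and none called by limma (0, and 0 at an unadjusted p under 0.05). Cox6b1 was at 4072, 1846 and 2139 in BPL and 1544, 1233 and 2280 in BPH, a log2 difference of -0.57 ± 0.31 (limma adjusted p = 0.33) in which BPL replicate 1 stood apart. Without that array it was -0.25, beside -0.26 for Cox5b. Cox7b (-0.25 ± 0.17) and Cox5b (-0.25 ± 0.16) overlapped between strains. The probe set annotated as Cox8c, an isoform known from testis, was at 6963, 6849 and 6191 against 5506, 6062 and 5739, which did not overlap, at -0.20 ± 0.14 (limma adjusted p = 0.45). Cox7a2l, which joins complexes III and IV in supercomplexes, stood at 0.01 ± 0.16, and at -0.10 with the authors' scaling and -0.15 after quantile normalization. Cox6b2, another isoform known from testis, stood at -0.08 ± 0.22, and at 0.14 without BPL replicate 1. Cox4i1, the largest nuclear-encoded subunit, stood at -0.15 on its brighter probe set and at -0.42 ± 0.17 (limma adjusted p = 0.22) on the other, where the strains did not overlap.

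For 3 subunits of complex IV the isoform found in most tissues could be set beside the isoform left out by rule. Cox6a2, of heart and skeletal muscle, was at 16401, 31305 and 1629 in BPL and 318, 332 and 450 in BPH. It fell by a log2 difference of -4.12 ± 0.87 (limma adjusted p = 0.036), with no overlap. With log2 means of 13.27 in BPL and 9.15 in BPH, Cox6a2 passed the brightness filter through its BPL signal. The direction of its call is therefore a description. That call was lost with the authors' scaling (limma adjusted p = 0.053), after quantile normalization (0.063), with no filter (0.091), with a trended and robust variance (0.16), without BPL replicate 2 and BPH replicate 3 together (0.10) and without any 1 array other than BPL replicate 3 (0.074 to 0.13). Its counterpart Cox6a1 was at 73550, 87837 and 79793 against 87887, 64297 and 64735, an overlap with a difference of -0.16 ± 0.18 (limma adjusted p = 0.63). Cox7a1 was at 16811, 19179 and 8983 against 9841, 3643 and 4700, a difference of -1.33 ± 0.39 (limma adjusted p = 0.11, and 0.047 without BPL replicate 3 and 0.040 with a stricter filter) in which the strains overlapped. Its counterpart Cox7a2 stood at -0.13 ± 0.17 (limma adjusted p = 0.70). Cox8b was at 47381, 50056 and 35776 against 37996, 18962 and 22812, a difference of -0.78 ± 0.27 (limma adjusted p = 0.15), with its other probe set at -0.63 and overlap in both. Its counterpart Cox8a was too dim to test, at 241, 274 and 109 against 243, 182 and 482. Whether the difference between the isoforms of a pair exceeds its error was not tested.

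**Figure D4:**
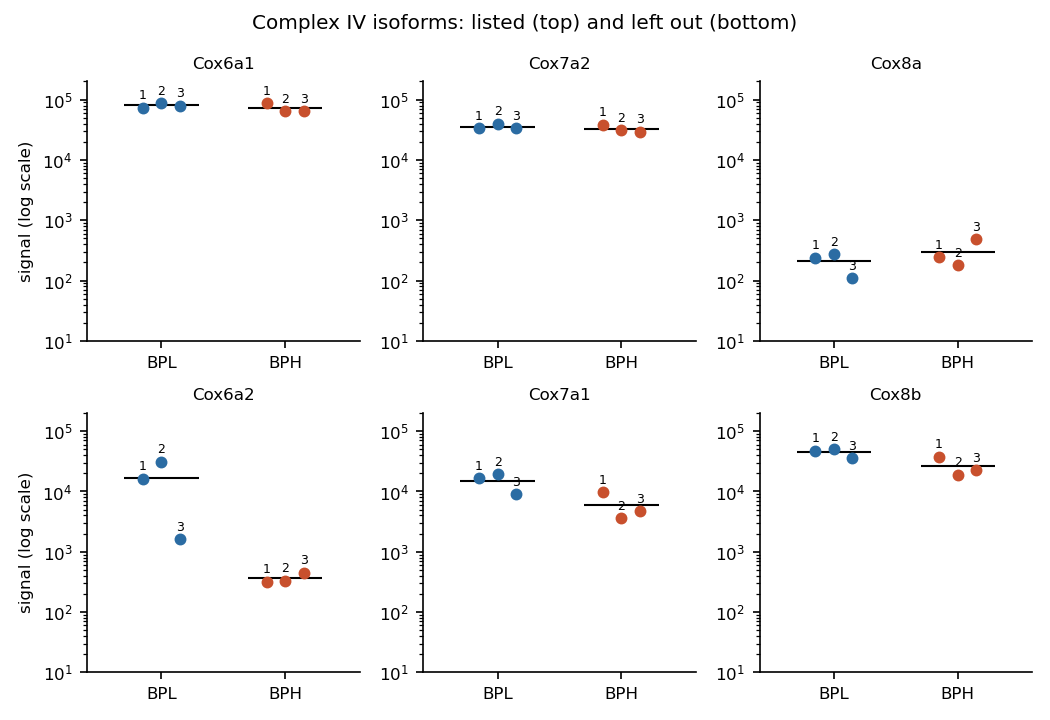
Signal on each array (vertical axis, log scale) of the complex IV isoforms Cox6a1, Cox7a2 and Cox8a in the top row and of their counterparts Cox6a2, Cox7a1 and Cox8b, known from striated muscle and brown fat, in the bottom row, with BPL in blue, BPH in red, replicate numbers at the points and a line at the mean (n = 3). Cox6a2 spans 1629 to 31305 in BPL and 318 to 450 in BPH, while the strains overlap in the other 5 genes.

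ATP synthase turns the proton gradient into ATP. Of its 14 measured genes 13 were tested, with a median of -0.17 and none called, which is 0 by limma with 1 at an unadjusted p under 0.05. That gene was Atp5k, the membrane subunit e, at 4491, 4798 and 3582 in BPL and 3415, 3042 and 2656 in BPH, with no overlap and a log2 difference of -0.47 ± 0.17 (limma adjusted p = 0.18). Atp5md, a small membrane subunit, stood at -0.41 ± 0.21 and Atp5o, the stalk subunit that confers oligomycin sensitivity, at -0.38 ± 0.21, both with overlapping strains. Among the head and central stalk, Atp5a1 (the alpha subunit) stood at -0.18 ± 0.16 and Atp5c1 (gamma) at -0.21 ± 0.18, with its other probe set at -0.44. The epsilon subunit Atp5e was level at 0.00 ± 0.23. The c ring genes Atp5g1 and Atp5g2, which encode the same mature peptide, stood at -0.14 and -0.03. Without BPL replicates 1 and 2 the median of ATP synthase was -0.03, that of complex I -0.10 and that of complex IV -0.07.

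The delta subunit gene Atp5d was the member above the median of all genes, and its 5 probe sets went different ways. The probe set 94279_at was at 1227, 1215 and 1123 in BPL and 919, 1108 and 927 in BPH, a log2 difference of -0.23 ± 0.15 (limma adjusted p = 0.40) with no overlap. Another, 161494_f_at, was at 3928, 4279 and 4467 against 6604, 6542 and 5743, also with no overlap but in the opposite direction, at 0.55 ± 0.15 (limma adjusted p = 0.085). The brightest, 162343_f_at, stood at 0.45 ± 0.27 and 161145_f_at at 0.32 ± 0.18, both overlapping. The dim 161047_at, not tested, was at 252, 181 and 158 against 890, 520 and 718. In Affymetrix names a letter before the ending marks probes that may match several transcripts or that broke a design rule, and 36 of the 97 member probe sets carry one. Neither 94279_at nor 161047_at does, and these lay on opposite sides. Of 9 member genes with over 1 tested probe set, Atp5d was the 1 with opposite signs and the 1 with a gap over 0.5, its tested probe sets spanning 0.78.

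**Figure D5:**
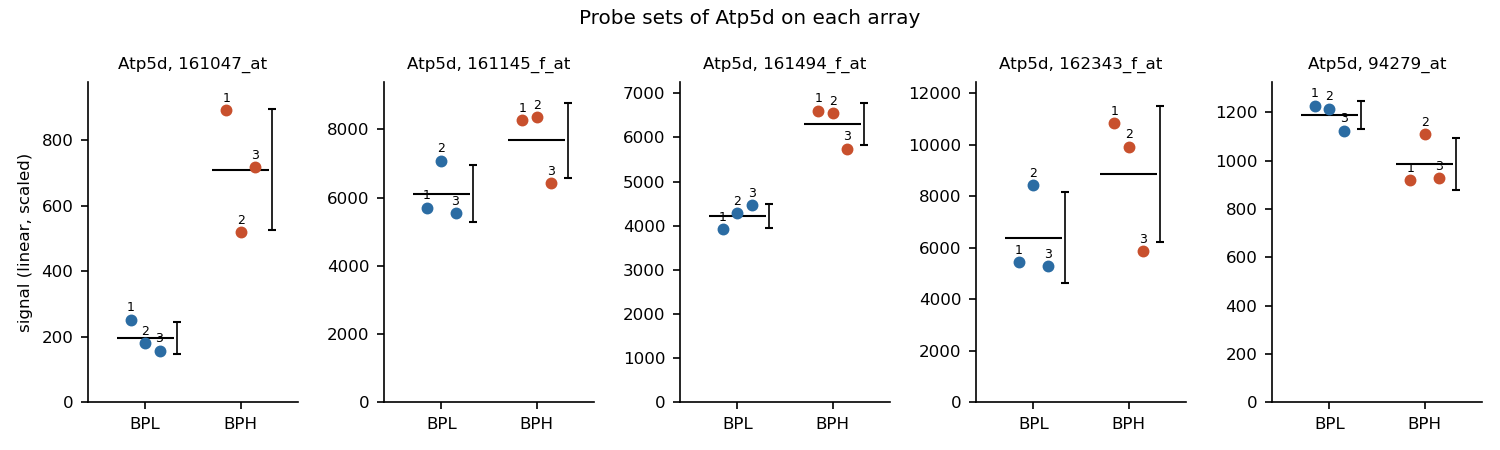
Signal on each array (vertical axes, linear scaled signal from 0, each panel with its own range) of the 5 probe sets annotated as Atp5d, with BPL in blue, BPH in red, replicate numbers at the points, a line at the mean and a bar for the SD (n = 3). In 94279_at all BPH arrays lie below all BPL arrays, and in 161494_f_at and 161047_at all lie above.

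Genes around the respiratory chain were read from lists of neighbouring pathways. Of 11 tested citric acid cycle genes 0 were called by limma, 10 had negative differences and 5 had an unadjusted p under 0.05, with a median of -0.43. Among all tested genes, 38.4% had a negative difference and 6.09% were lower at an unadjusted p under 0.05. The lists were not matched to these for brightness. Idh3a, a subunit of isocitrate dehydrogenase, stood at -0.68 ± 0.22 and Suclg1, of succinyl-CoA ligase, at -0.58 ± 0.22. Of 6 genes of pyruvate dehydrogenase and its control 1 was called lower (median -0.41). Dlat, the acetyltransferase core of that enzyme, fell from 4945 ± 1099 to 2403 ± 459 (SD, n = 3), without overlap (-0.98 ± 0.20, limma adjusted p = 0.036). Pdha1, a subunit of its first enzyme, stood at -0.79 ± 0.21 (limma adjusted p = 0.087) without overlap. Pdk3, a kinase that inhibits the enzyme, stood on the other side at 0.74 ± 0.20 (limma adjusted p = 0.085), also without overlap, and 2 genes of the list were lower and 1 higher at an unadjusted p under 0.05. Of 9 mitochondrial carriers and porins 1 was called lower (median -0.38). It was the uncoupling protein Ucp3, known for skeletal muscle and brown fat, at -1.32 ± 0.26 (limma adjusted p = 0.029), and the carnitine carrier Slc25a20 stood at -0.75 ± 0.26.

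Lists of genes that build or regulate the chain had medians nearer to 0 than the lists above, each still below the 0.09 of all genes. Of 18 assembly and cofactor genes 0 were called by limma (2 lower at an unadjusted p under 0.05), with a median of -0.04. Coq9, of ubiquinone synthesis, stood at -0.67 ± 0.23 and Uqcc1, of complex III assembly, at -0.60 ± 0.18. Of 10 regulators 0 were called by limma (3 lower and 1 higher at an unadjusted p under 0.05), with a median of -0.16. The nuclear receptors Esrra, at 4684, 5505 and 3858 in BPL and 3157, 2734 and 2514 in BPH, and Ppara stood at -0.69 ± 0.18 (limma adjusted p = 0.076) and -0.65 ± 0.21. Yy1, whose letters were also searched in the promoters, was the 1 higher, at 0.44 ± 0.16 (limma adjusted p = 0.18) without overlap. Gabpa, of the searched ETS core, stood at -0.07 ± 0.16. Of 42 genes of the mitochondrial ribosome, import and proteases 1 was called lower and 1 higher, with a median of -0.02. The ribosomal protein Mrpl3 fell, at -0.81 ± 0.15 (limma adjusted p = 0.022), and the chaperonin partner Hspe1 rose by 0.82 ± 0.17 (limma adjusted p = 0.036). No gene listed as encoded in mitochondrial DNA had a probe set with a single symbol, and those subunits were not analysed here.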

How the data were processed

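The deposited table holds linear signal intensity values, made by the authors with MAS5 per the submitters' processing notes, with its version and settings not given in the sources used here. The trimmed mean was 2501.34 to 2501.53 on every array. Array medians differed by 21% (945.1 to 1144), so arrays were scaled to a median of 1040 and transformed as log2(signal + 203), the 20th percentile, which understates changes of dim genes. The 66 control probe sets and the 40% of the other 12422 with the lowest mean were not tested, leaving 7453. The functions lmFit and eBayes of limma (version 3.58.1, R 4.3.3) compared BPH with BPL, 2-sided, with Benjamini-Hochberg adjustment. Signals are printed after scaling, in replicate order 1, 2 and 3. Probe sets were named from the platform annotation, and Entrez IDs of all 70 genes matched the GRCm38.p6 gene table. No 2 arrays shared more than 1 identical value. The number of arrays limits the precision. The test was checked on simulated arrays.

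The members, lists and motifs were chosen with earlier results of these data known. Named genes were called members, all of complex II, Cyc1, Cycs, in complexes I, III and IV and ATP synthase the 4 lowest and 2 highest differences, genes whose probe sets disagreed, the 3 isoforms left out, and of each pathway list the called genes and the 2 largest differences. Others were chosen after their values were seen.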

Additional observations from a re-analysis of the deposited data

How the results depend on the processing

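The count of 1 respiratory chain gene called lower became 2 with the authors' scaling and after quantile normalization (Sdhd and Ndufa7), and 0 with no filter, without BPL replicates 1 and 2, and, chosen after seeing the data, without BPL replicate 2 and BPH replicate 3 together. With single arrays left out it ran from 0 to 1. The count called higher was 0 by limma under every alternative run. The median of complex IV was -0.27 with the authors' scaling and -0.31 after quantile normalization, and that of complex III was -0.04 without BPL replicates 1 and 2. With single arrays left out, medians ran from -0.34 to -0.16 for all members, -0.35 to -0.15 for complex I, -0.56 to -0.27 for complex II, -0.37 to -0.16 for complex III, -0.22 to -0.10 for complex IV and -0.27 to -0.11 for ATP synthase. The causes were not tested. A fit without a filter adjusts over more probe sets, and its standard errors also differed (0.25 against 0.24 for Sdhd), and the 2 were not separated.

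Some small differences, none of them called, changed sign. Cox7a2l was -0.10 and Ndufc1 -0.04 with the authors' scaling, and both were -0.15 after quantile normalization. Without BPL replicates 1 and 2, Cox7b was 0.01, Uqcr10 and Uqcr11 were 0.04 and Uqcrc1 was 0.08. Without BPL replicate 2 and BPH replicate 3 together, Uqcr10 was 0.18 and Uqcr11 0.19. With single arrays left out, Cox6b2 reached 0.14, and ranges were -0.10 to 0.11 for Cox7a2l, -0.02 to 0.21 for Ndufc1, -0.13 to 0.08 for Uqcr10 and -0.30 to 0.06 for Uqcr11.

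Same-numbered arrays of the strains did not deviate together over the tested probe sets (correlations of -0.058, -0.054 and -0.18). The main fit did not pair them, but such correlations cannot exclude a shared batch, since tissue content also differed between arrays. With the replicate block 1 member was called lower, Sdhd at -1.26 (limma adjusted p = 0.022), and the members' median was -0.24. No genome build is given for the array, no detection call was used, and MAS5 background correction could not be varied.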

Other observations

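Of the 57 member genes with a promoter window, 17 have a gene that starts within 500 bases and runs the other way, and 5 of these neighbours were tested. Beside Timm8b, they were Gabpa next to Atp5j (-0.07 ± 0.16 and -0.17 on the log2 scale), Wdr77 next to Atp5pb (0.01 ± 0.22 and -0.01), Rps28 next to Ndufa7 (-0.17 ± 0.17 and -0.55) and Fam126b next to Ndufb3 (0.34 ± 0.17 and -0.29). Of the 5 neighbours 0 were called by limma, with adjusted p from 0.31 to 0.99. Gabpa encodes the ETS factor subunit whose motif core was searched in the promoters, and Wdr77 a partner of a protein methyltransferase.

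The 70 member genes lie on 19 chromosomes, with at most 6 on any of them.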
